A study of Mus musculus with 12 samples.

Results

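The mitochondrial solute carriers of the Slc25 family were examined in the tibialis anterior, a fast muscle at the front of the lower hindlimb. Members were all entries of the deposited count table whose symbol is Slc25a followed by digits, which gave 47 of 24421 entries. Total RNA of male mice aged 4 months had been sequenced in 12 libraries, 6 of strain C57Bl/6 (WT) and 6 of strain mdx/mTR. In mdx mice the dystrophin gene, Dmd, carries a disrupting mutation in every cell, and mTR denotes the telomerase RNA gene. Because both alleles differ between the strains, their parts cannot be told apart here, and the labels give neither a generation nor a litter. The labels do not state that each library is a separate animal, so p-values measure the spread between these libraries.

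Slc25 carriers are small membrane proteins that are encoded in the nucleus, made in the cytosol and for the most part inserted into the inner mitochondrial membrane. Each moves a particular set of metabolites, commonly by exchanging one for another, because the inner membrane is otherwise closed to charged molecules. In skeletal muscle they export ATP to the contractile apparatus and import phosphate, ADP and fatty acids bound to carnitine. They also carry the reducing equivalents of glycolysis into the matrix in the form of malate.

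Library totals were 35136327 to 60330410 counts. A floor of 3 counts corresponds to 0.0460 to 0.0837 CPM, a count relative to its TMM-scaled library total. TMM factors were 0.929 to 0.971 in WT and 0.988 to 1.16 in mdx/mTR, with mdx/mTR replicate 5 highest. Dmd lay at 228 to 244 CPM in WT and 35.2 to 56.4 CPM in mdx/mTR. Markers of skeletal fibres summed to 174344 to 204924 CPM in WT and 137351 to 187541 CPM in mdx/mTR, with 1 of 7 called higher and 1 lower. Macrophage markers rose from 91.5 to 156 CPM (summed, WT) to 252 to 675 CPM (mdx/mTR), with 7 of 8 called higher. Fibroblast markers summed to 840 to 1558 CPM in WT, against 2160 to 4358 CPM in mdx/mTR, and all 5 were called higher. Satellite cell and myoblast markers lay at 23.4 to 33.7 CPM (WT) and 38.6 to 79.1 CPM (mdx/mTR), with 3 of 4 higher, and all 4 tested markers of dividing cells were higher (1.47 to 11.9 CPM in WT, 8.82 to 38.5 CPM in mdx/mTR). Of 4 Schwann cell markers 3 were lower and 0 higher, and of 5 endothelial markers 2 were lower and 1 higher. Adipocyte markers (3 tested) and erythroid markers (2 tested) had 0 calls. Over all genes tested, 25.0% were called higher and 23.4% lower. The library of mdx/mTR replicate 5 was the lowest of its group in the fibre sum and the highest in the macrophage, fibroblast and satellite cell sums. Their part in the results on carriers was not tested. In whole muscle, fewer cells of a type and less RNA per cell cannot be told apart.

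Among levels per kilobase of transcript, the ADP/ATP carrier Slc25a4 stood first by a wide margin. Its level was 2492 ± 78.1 CPM per kilobase in WT, and 2009 ± 205 was measured in mdx/mTR (mean ± SD, 6 libraries per group). The phosphate carrier Slc25a3 followed at 569 CPM per kilobase in WT, then the oxoglutarate/malate carrier Slc25a11 at 205, the aspartate/glutamate carrier Slc25a12 at 123 and the acylcarnitine carrier Slc25a20 at 54.8. The same 7 members, ending with Slc25a39 and Slc25a51, held the first 7 places in the same order in both groups. Slc25a4 alone took 61.1% to 62.0% of the summed CPM of the family in WT, against 59.3% to 61.9% in mdx/mTR. The family total was 7444, 7799 and 8165 CPM (lowest, median and highest) in WT and 5234, 6544 and 6895 CPM in mdx/mTR. With TMM scaling the groups thus did not overlap, but without it they did. As a percentage of the unscaled library total, the family reached 0.718% for mdx/mTR replicates 2 and 3. WT replicate 1 (0.706%) and WT replicate 4 (0.710%) lay below that.

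The DNA before the RefSeq start of these genes is shown for 4 members that fell and share a short motif, and for Slc25a5, the higher paralog of Slc25a4, which lacks it. Each line holds the 250 bases before the start in RefSeq, build GRCm38.p6, read 5′ to 3′ on the gene's strand. Capitals mark CCGGAAG, the core bound by ETS factors such as GABP, a regulator known for nuclear genes of mitochondrial proteins.
Slc25a4: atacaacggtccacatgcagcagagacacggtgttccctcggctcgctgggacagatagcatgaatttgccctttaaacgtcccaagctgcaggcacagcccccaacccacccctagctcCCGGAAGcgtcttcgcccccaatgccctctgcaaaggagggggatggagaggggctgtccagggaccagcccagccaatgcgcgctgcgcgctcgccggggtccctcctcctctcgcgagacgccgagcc
Slc25a3: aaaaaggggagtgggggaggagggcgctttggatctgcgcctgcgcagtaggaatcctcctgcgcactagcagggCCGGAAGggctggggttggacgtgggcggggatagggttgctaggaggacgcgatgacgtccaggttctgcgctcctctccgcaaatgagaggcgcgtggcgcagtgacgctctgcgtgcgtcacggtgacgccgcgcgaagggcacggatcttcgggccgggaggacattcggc
Slc25a20: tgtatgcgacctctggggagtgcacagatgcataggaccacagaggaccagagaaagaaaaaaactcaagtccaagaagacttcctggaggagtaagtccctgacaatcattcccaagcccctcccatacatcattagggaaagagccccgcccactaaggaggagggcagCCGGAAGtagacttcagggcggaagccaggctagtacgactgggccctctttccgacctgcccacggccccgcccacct
Slc25a38: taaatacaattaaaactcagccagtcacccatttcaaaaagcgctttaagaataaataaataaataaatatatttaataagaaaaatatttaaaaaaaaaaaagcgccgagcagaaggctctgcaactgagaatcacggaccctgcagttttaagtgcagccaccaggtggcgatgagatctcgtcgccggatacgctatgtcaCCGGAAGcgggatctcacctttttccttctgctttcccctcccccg
Slc25a5: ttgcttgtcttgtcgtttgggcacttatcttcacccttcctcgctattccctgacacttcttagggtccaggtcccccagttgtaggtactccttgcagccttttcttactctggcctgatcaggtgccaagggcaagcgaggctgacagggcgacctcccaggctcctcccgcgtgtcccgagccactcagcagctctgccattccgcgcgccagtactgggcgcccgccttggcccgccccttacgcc

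The Slc25a4 window is chr8:46211063-46211312 on the minus strand and Slc25a3 is chr10:91123968-91124217 on the minus strand. The Slc25a20 window is chr9:108661886-108662135, that of Slc25a38 is chr9:120110132-120110381 and that of Slc25a5 is chrX:36795347-36795596, all on the plus strand. CCGGAAG began at -130 in Slc25a4, -175 in Slc25a3, -79 in Slc25a20 and -46 in Slc25a38, counted from the start. In GENCODE M21, Slc25a4 begins further upstream, so that 222 of the 250 bases of its window and the marked motif lie inside the annotated gene. The windows of Slc25a3, Slc25a20 and Slc25a38 reach into their GENCODE genes by 92, 48 and 8 bases, with the motif outside, and that of Slc25a5 by 0. RefSeq promoters were matched to 36 of the 47 members, which gave 46 windows. CCGGAAG was found on either strand in 6 of them (13.0%), against 6.91% of the 32851 windows of all genes. By direction, it was in 4 of 21 windows of members that fell and 0 of 5 windows of members that rose. The other 2 were before Slc25a17 and Slc25a54. The windows of Slc25a34 and Slc25a22, the members with the largest falls, lacked it. Median GC content was 57.4% in the member windows and 52.4% in all windows. A link between this motif and the direction of change was not tested. TGACGTCA, the cyclic AMP response element, was in 2 windows, of Slc25a25 and Slc25a36 (1.55% of all windows). Its match in Slc25a25 was in 1 of 3 windows of that gene and lay inside the GENCODE gene, while that of Slc25a36 lay outside. TATAAA was in 2, of Slc25a18 and Slc25a21 (12.4% of all windows), both times inside the GENCODE gene. GCATGCGC, the core of the site of the factor NRF1, was in 2, before the untested Slc25a31 and Slc25a54 (2.26% of all windows). TNAAGGTCA, a site of the estrogen-related receptors, was in 0 of the 46, against 1.14% of all windows. Both strands were searched for each motif, and only the Slc25a54 window held 2 matches, which did not overlap.

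The comparison asked which carriers differ in mRNA between dystrophic and WT muscle. Most members that changed were lower in mdx/mTR, among them carriers of ATP, phosphate, acylcarnitine, glutamate and several cofactors. In all, 40 members had enough counts to test. Of these, 28 (70%) had an adjusted p below 0.05 in edgeR's quasi-likelihood test, 6 higher and 22 lower. The 22 include Slc25a2, which passed the count filter mainly through WT, where it is higher. Over all 13937 genes tested 48.3% were called, 25.0% higher and 23.4% lower. Relative to WT, the median log2 change was -0.23 over the 40 members and 0.01 over all genes, and the median size without sign was 0.31 and 0.23. In 3 members all mdx/mTR libraries lay above all WT libraries, and in 12 all lay below, while over all genes each of these held for 12.6% (25.2% in either direction). A change of at least 2-fold was called for 1 member that rose, Slc25a24, and 2 that fell, Slc25a34 and Slc25a22 (7.24% and 1.94% of all genes). These 3 also passed when a log2 change beyond 0.5 was required by the test, as did 7.26% of all genes upward and 2.55% downward. Scaling by library totals alone, which shifts the median of all genes by 0.16 on the log2 scale, gave 9 members higher and 11 lower (40.1% and 11.2% of all genes), with a family median of -0.08. The 28 members called kept their sign there, 17 of them were called again, and 11 lost their call: Slc25a2, Slc25a3, Slc25a11, Slc25a12, Slc25a15, Slc25a16, Slc25a30, Slc25a33, Slc25a38, Slc25a39 and Slc25a51, with edgeR adjusted p-values of 0.0503 to 0.864.

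**Figure D1:**
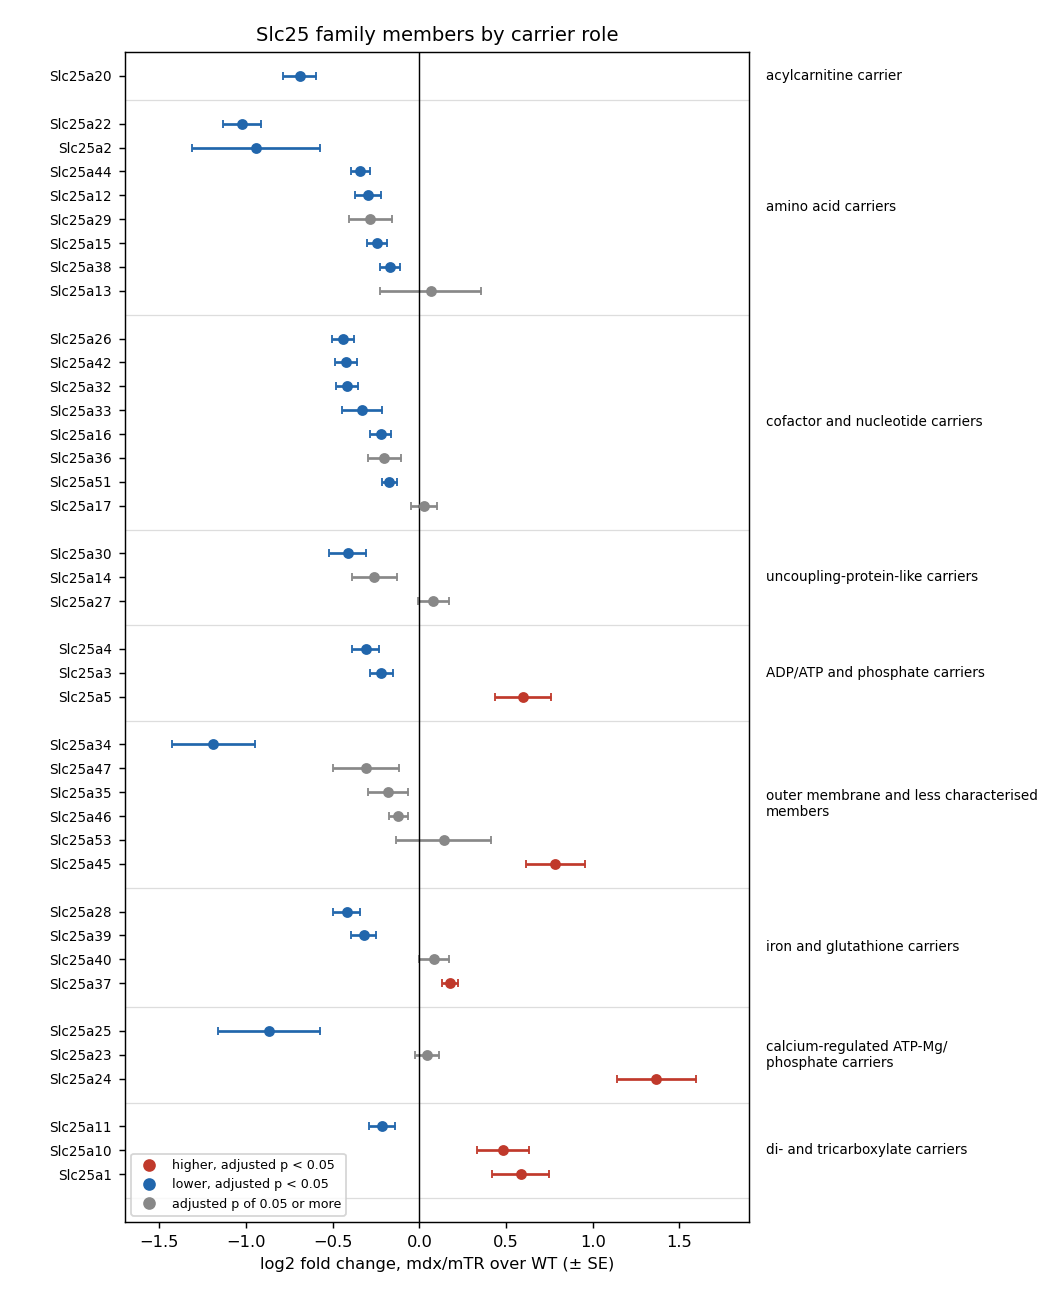
Log2 fold change between the groups (mdx/mTR relative to WT) for 39 of the tested members, with bars of 1 standard error; colour marks the direction of those with an adjusted p below 0.05. Slc25a24 has the highest value, 1.37, and Slc25a34 the lowest, -1.19, and 27 of the 39 lie below 0.

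The carriers that supply oxidative phosphorylation come first. Slc25a4, which exchanges ADP for ATP and is the main form in muscle and heart, lay at 4619, 4788 and 4992 CPM (lowest, median and highest) in WT and 3105, 3962 and 4270 CPM in mdx/mTR. The groups did not overlap, and mdx/mTR replicate 5 was the lowest library. Its log2 fold change was -0.31 ± 0.08 (SE; edgeR adjusted p = 0.00433), and -0.26 without that library. Scaling by library totals alone gave -0.16 (edgeR adjusted p = 0.0297). Slc25a3, which brings in phosphate for ATP synthesis, lay at 841, 923.7 and 987 CPM in WT and 669, 812 and 846 CPM in mdx/mTR. The highest mdx/mTR library was just inside the WT range. Slc25a3 fell by 0.22 ± 0.07 on the log2 scale (SE; edgeR adjusted p = 0.0137), and with library totals alone the value was -0.07 (edgeR adjusted p = 0.364).

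Slc25a5, the ADP/ATP carrier of many other tissues and of dividing cells, moved the other way. It lay at 9.72, 13.1 and 15.8 CPM in WT and 14.9, 16.6 and 28.0 CPM in mdx/mTR, with mdx/mTR replicate 5 highest and the lower mdx/mTR libraries within the WT range. Its log2 fold change was 0.60 ± 0.16 (SE; edgeR adjusted p = 0.00808). Transcripts of 9 other genes hold 46.6% of its 50-base stretches, so its level is uncertain where reads were split between copies. Slc25a31, the ADP/ATP carrier of the testis, had 12 counts in all libraries together and was not tested.

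**Figure D2:**
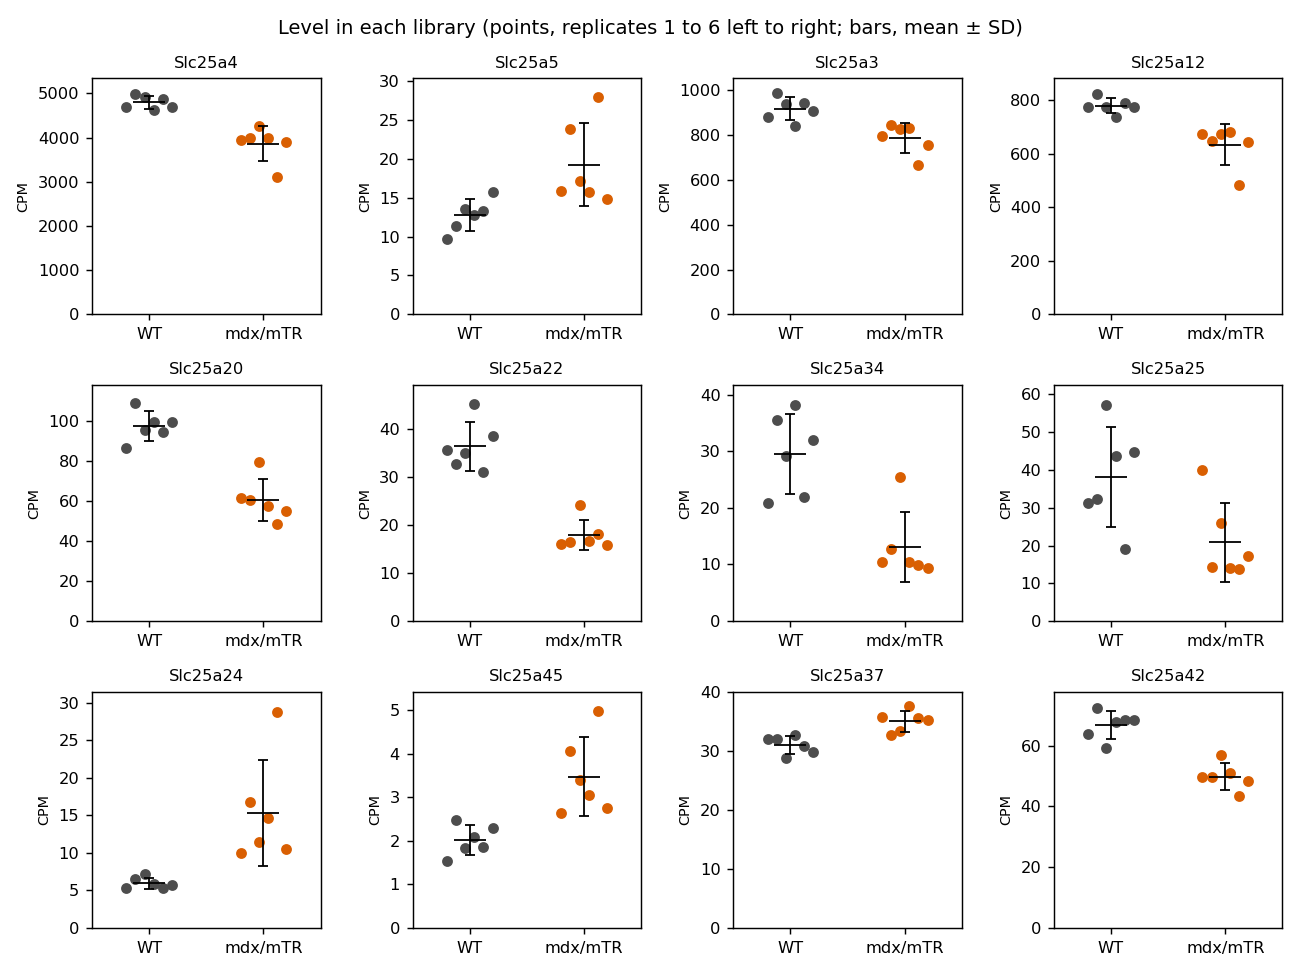
TMM-scaled CPM per library, on linear axes that start at 0, for 12 members; points are libraries in replicate order, and bars are the mean ± SD of each group. All 6 mdx/mTR libraries of Slc25a4 (3105 to 4270 CPM) sit below the WT libraries, and all 6 of Slc25a24 (10.02 to 28.7 CPM) sit above them.

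The calcium-regulated carriers that exchange ATP-magnesium for phosphate set the size of the matrix pool of adenine nucleotides. Slc25a24 lay at 5.28, 5.75 and 7.19 CPM in WT and 10.02, 13.0 and 28.7 CPM in mdx/mTR. The groups did not overlap, and mdx/mTR replicate 5 was well above the other libraries. Its log2 fold change of 1.37 ± 0.23 (SE; edgeR adjusted p = 0.000316) was the largest rise of the family, and it was 1.09 without that library. Slc25a25 lay at 19.1, 38.1 and 57.1 CPM in WT and 13.9, 15.7 and 40.1 CPM in mdx/mTR. Both groups were widely spread, and mdx/mTR replicate 1 lay above the WT median. Slc25a25 changed by -0.87 ± 0.30 (SE; edgeR adjusted p = 0.026), and the call was lost in 6 of 12 fits that left out 1 library each: WT replicate 3 or 6 or mdx/mTR replicate 2, 4, 5 or 6. Slc25a23 had a log2 fold change of 0.04 ± 0.07 (SE), with an edgeR adjusted p of 0.628. Slc25a41 had 15 counts in all and was not tested.

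Carriers of di- and tricarboxylates link the citric acid cycle to the cytosol. Slc25a1, which exports citrate, lay at 2.17, 2.57 and 3.42 CPM in WT and 2.89, 3.74 and 5.49 CPM in mdx/mTR, with overlap. It rose by 0.58 ± 0.16 on the log2 scale (SE; edgeR adjusted p = 0.00957). Slc25a10, the dicarboxylate carrier, lay at 3.18, 4.44 and 4.83 CPM in WT and 4.23, 6.00 and 7.69 CPM in mdx/mTR, and the 2 lowest mdx/mTR libraries were within the WT range. It rose by 0.48 ± 0.15 (SE; edgeR adjusted p = 0.0181). The far more abundant oxoglutarate/malate carrier Slc25a11 fell by 0.22 ± 0.07 (SE; edgeR adjusted p = 0.0244), and its call was lost without WT replicate 2 (0.0514) or mdx/mTR replicate 6 (0.0508). Upper-quartile scaling gave an edgeR adjusted p of 0.0621, and library totals alone a log2 change of -0.06 with 0.47. Exons of Slc25a11 overlap Rnf167 on the opposite strand over 8.92% of their length, and the handling of strand is not given in the sources used here. Slc25a21, the oxoadipate carrier, had 43 counts and was not tested.

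Among carriers of amino acids 6 of 8 tested fell and 0 rose, with a median log2 fold change of -0.29, against 23.4% of all genes that fell. The 6 that fell include Slc25a2, which entered the test mainly through its WT libraries. Of the 8, 2 fell with library totals alone (11.2% of all genes). Slc25a12 exports aspartate in exchange for glutamate in the malate-aspartate shuttle and is activated by calcium. It lay at 737, 775 and 822 CPM in WT and 483, 659 and 682 CPM in mdx/mTR. The groups did not overlap, and mdx/mTR replicate 5 was the lowest. Its log2 fold change was -0.30 ± 0.08 (SE; edgeR adjusted p = 0.00589), and -0.23 without that library. Its paralog Slc25a13, the main form in liver, was counted 11 to 58 times a library and lay at 0.305, 0.674 and 0.865 CPM in WT and 0.409, 0.639 and 0.980 CPM in mdx/mTR, with overlapping groups. Its log2 change was 0.06 ± 0.29 (SE; edgeR adjusted p = 0.87).

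The glutamate carrier Slc25a22 lay at 31.1, 35.4 and 45.3 CPM in WT and 15.9, 16.7 and 24.2 CPM in mdx/mTR. Every mdx/mTR library was below the lowest WT library, with mdx/mTR replicate 3 nearest to WT. Slc25a22 changed by -1.02 ± 0.11 on the log2 scale (SE), the smallest edgeR adjusted p of the family (1.12e-05). Slc25a18, a second glutamate carrier, had 60 counts and was not tested. The ornithine carriers Slc25a15 and Slc25a2 fell by 0.24 and 0.94. Slc25a2 was close to the detection limit, at 0.0523 to 0.424 CPM over all libraries. It reached the cutoff of the count filter in 5 WT libraries and 1 mdx/mTR library. It was thus tested mainly through the group where it is higher, so its fall adds no support to the counts of lower members. Its call (edgeR adjusted p = 0.0486) was lost in 10 of the 12 fits without 1 library. The call held only without WT replicate 2 or mdx/mTR replicate 3. Slc25a44, which carries branched-chain amino acids, fell by 0.34, and Slc25a38, the glycine carrier needed for heme synthesis, fell by 0.17. Slc25a29, a carrier of basic amino acids, had a log2 fold change of -0.28 ± 0.12 (SE; edgeR adjusted p = 0.0715).

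Slc25a20 brings acylcarnitines into the matrix for beta-oxidation and returns free carnitine. It lay at 86.7, 97.8 and 109 CPM in WT and 48.8, 58.9 and 79.8 CPM in mdx/mTR. The groups did not overlap, and mdx/mTR replicate 3 was nearest to WT. Slc25a20 changed by -0.69 ± 0.10 on the log2 scale (SE; edgeR adjusted p = 7.16e-05), which placed it at 33.9 CPM per kilobase in mdx/mTR.

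Carriers of cofactors and nucleotides fell in 7 of 9 tested members and rose in 0, with a median log2 fold change of -0.33 (23.4% of all genes fell). Of the 9, 4 fell with library totals alone (11.2% of all genes). Slc25a26, which imports the methyl donor S-adenosylmethionine, lay at 27.3, 28.1 and 29.6 CPM in WT and 17.4, 21.7 and 23.1 CPM in mdx/mTR. The WT libraries were close together and all above mdx/mTR. Slc25a26 changed by -0.44 ± 0.06 on the log2 scale (SE), with an edgeR adjusted p of 8.69e-05. Slc25a42, a carrier of coenzyme A, lay at 59.2, 68.1 and 72.5 CPM in WT and 43.4, 49.8 and 57.0 CPM in mdx/mTR. These groups did not overlap either, and the log2 change was -0.42 ± 0.06 (SE; edgeR adjusted p = 0.000141).

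Further falls in this group were those of Slc25a32, linked to folate and FAD (-0.42), and of the pyrimidine nucleotide carrier Slc25a33 (-0.33). Slc25a16 (-0.22) and the NAD carrier Slc25a51 (-0.17) fell as well. Libraries of the groups did not overlap for Slc25a32 and Slc25a51. The call of Slc25a33 was lost without WT replicate 3 or 5 or mdx/mTR replicate 5, with an edgeR adjusted p of up to 0.0595, and its exons overlap the gene Gm13068 over 14.9% of their length. Slc25a36, the paralog of Slc25a33, had a log2 fold change of -0.20 ± 0.10 (SE; edgeR adjusted p = 0.0973), and the peroxisomal carrier Slc25a17 one of 0.03 ± 0.08 (SE; edgeR adjusted p = 0.79).

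The mitoferrins Slc25a28 and Slc25a37 bring iron into mitochondria, and they moved in opposite directions. Slc25a37 lay at 28.8, 31.5 and 32.7 CPM in WT and 32.8, 35.4 and 37.7 CPM in mdx/mTR, so that the groups met without overlap. It rose by 0.18 ± 0.05 on the log2 scale (SE; edgeR adjusted p = 0.0078). Slc25a28 lay at 26.3, 31.1 and 34.9 CPM in WT and 20.7, 22.3 and 28.2 CPM in mdx/mTR, and only mdx/mTR replicate 4 reached into the WT range. It fell by 0.42 ± 0.08 (SE; edgeR adjusted p = 0.000693). Of the glutathione carriers, Slc25a39 fell by 0.32, and Slc25a40 had a log2 fold change of 0.08 ± 0.08 (SE; edgeR adjusted p = 0.438).

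Of the members most like uncoupling proteins, Slc25a30 fell by 0.41 ± 0.11 (SE; edgeR adjusted p = 0.00525), with no overlap between the groups, and with library totals alone its edgeR adjusted p was 0.0778. Slc25a14 had a log2 fold change of -0.26 ± 0.13 (SE; edgeR adjusted p = 0.113) and Slc25a27 one of 0.08 ± 0.09 (SE; edgeR adjusted p = 0.492).

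The remaining members are less well characterised. Slc25a34 lay at 20.9, 30.6 and 38.1 CPM in WT and 9.31, 10.4 and 25.5 CPM in mdx/mTR. Only mdx/mTR replicate 3 lay within the WT range, and the other 5 libraries were at or below 12.7 CPM. Slc25a34 changed by -1.19 ± 0.24 on the log2 scale (SE; edgeR adjusted p = 0.0012), the largest fall of the family, and by -1.48 without mdx/mTR replicate 3. Slc25a45 lay at 1.53, 1.97 and 2.48 CPM in WT and 2.63, 3.22 and 4.98 CPM in mdx/mTR. Its groups did not overlap, and it rose by 0.78 ± 0.17 (SE; edgeR adjusted p = 0.00209). The outer-membrane protein Slc25a46, which is known for its part in mitochondrial dynamics, had a log2 fold change of -0.12 ± 0.05 (SE; edgeR adjusted p = 0.0786). Slc25a35, Slc25a47 and Slc25a53 did not pass the test either, with log2 fold changes of -0.18, -0.31 and 0.14. Exons of Slc25a35 overlap the gene Rangrf over 31.3% of their length.

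Slc25a43, Slc25a48 and Slc25a54 had 84, 21 and 12 counts and were not tested. The 7 untested members thus had a highest count of 15 in any library. When no filter on low counts was used, 8 members were higher and 21 lower (19.0% and 16.4% of all genes then tested). Slc25a18 and Slc25a43 were then called higher, with edgeR adjusted p-values of 0.0379 and 0.0435. Slc25a18 had 0, 2 and 4 counts (lowest, median and highest) in WT and 1, 8.5 and 13 in mdx/mTR, and Slc25a43 had 2, 3.5 and 5 in WT and 5, 11 and 15 in mdx/mTR. In WT the median of Slc25a18 is under the floor of 3 counts and that of Slc25a43 just above it.

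**Figure D3:**
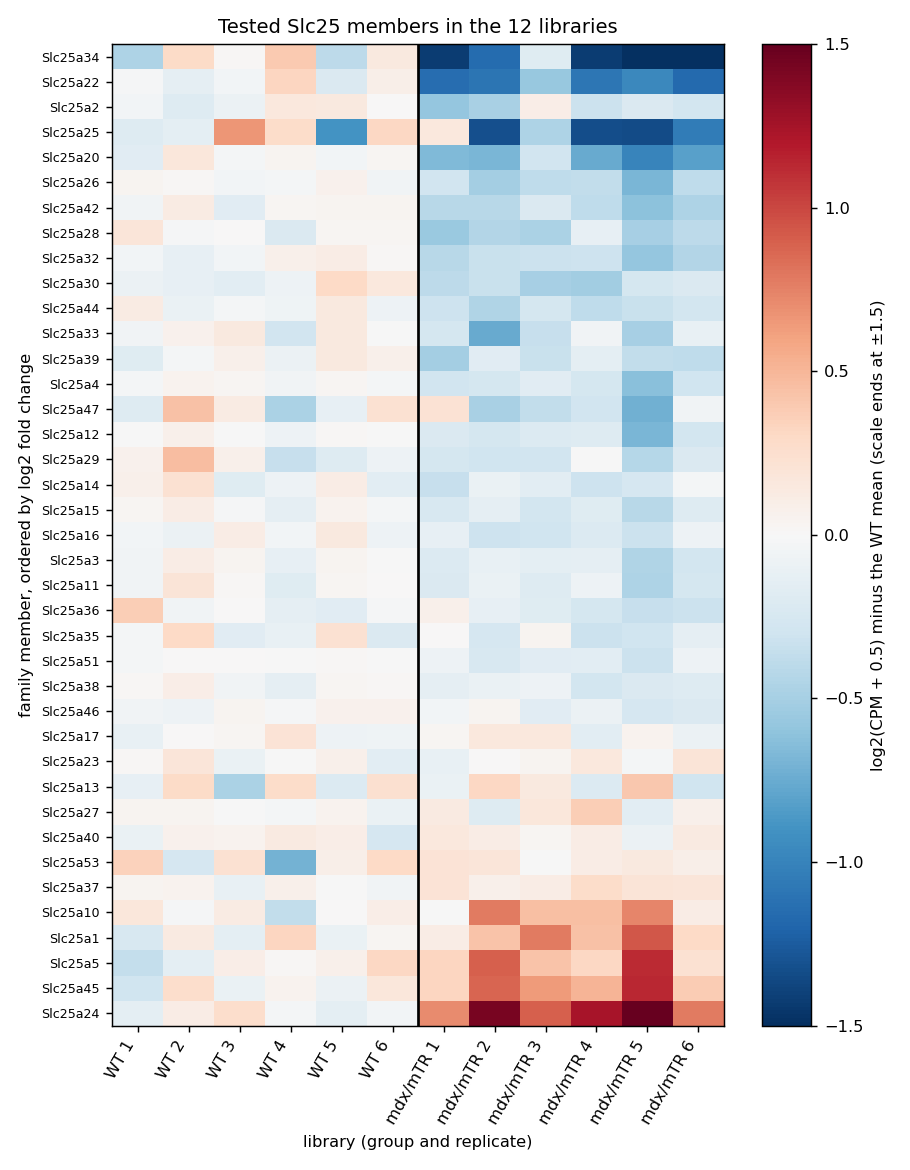
Log2 CPM of 39 tested members in each library, with 0.5 added to CPM and the WT mean of the member taken off; rows are members ordered by fold change, columns are libraries, and colours end at ±1.5. Most rows are lower (blue) in the mdx/mTR columns, and the bottom rows with Slc25a45 and Slc25a24 are higher (red). Replicate 5 of mdx/mTR is the lowest of its group for 18 of all 40 tested members. The matching share of all genes was not determined, and this library has the highest TMM factor, 1.16, which lowers its CPM.

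For 6 pairs of closely related carriers, the share of the pair's counts that fell on one partner was compared with an exact two-sided permutation test over the libraries. Shares of counts are not shares of molecules, because the transcripts differ in length. The share of Slc25a5 within Slc25a4 plus Slc25a5 was 0.265% ± 0.0447 in WT and 0.511% ± 0.204 in mdx/mTR (mean ± SD, 6 libraries per group), without overlap (exact permutation p = 0.00216, adjusted over the 6 pairs 0.00325). Slc25a24 made up 22.8% ± 2.80 of Slc25a23 plus Slc25a24 in WT and 40.9% ± 10.1 in mdx/mTR, again without overlap. The WT libraries spanned 19.9% to 27.6%, and the mdx/mTR libraries 31.3% to 59.2% (exact permutation p = 0.00216, adjusted 0.00325).

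Slc25a37 made up 50.2% ± 2.82 of the mitoferrin counts in WT and 60.4% ± 2.18 in mdx/mTR. Slc25a40 made up 8.09% ± 0.975 of the counts of the glutathione carriers in WT and 10.5% ± 1.13 in mdx/mTR. These pairs, too, did not overlap between groups, and the exact permutation p was 0.00216 for each, the smallest that 6 libraries against 6 can give (adjusted 0.00325). The share of Slc25a13 in Slc25a12 plus Slc25a13 was 0.0822% ± 0.0307 in WT and 0.110% ± 0.0529 in mdx/mTR (exact permutation p = 0.307, adjusted 0.369). The share of Slc25a36 in Slc25a33 plus Slc25a36 was 52.9% ± 4.58 and 55.4% ± 5.72 (exact permutation p = 0.424, adjusted 0.424). Both of these overlapped between groups.

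**Figure D4:**
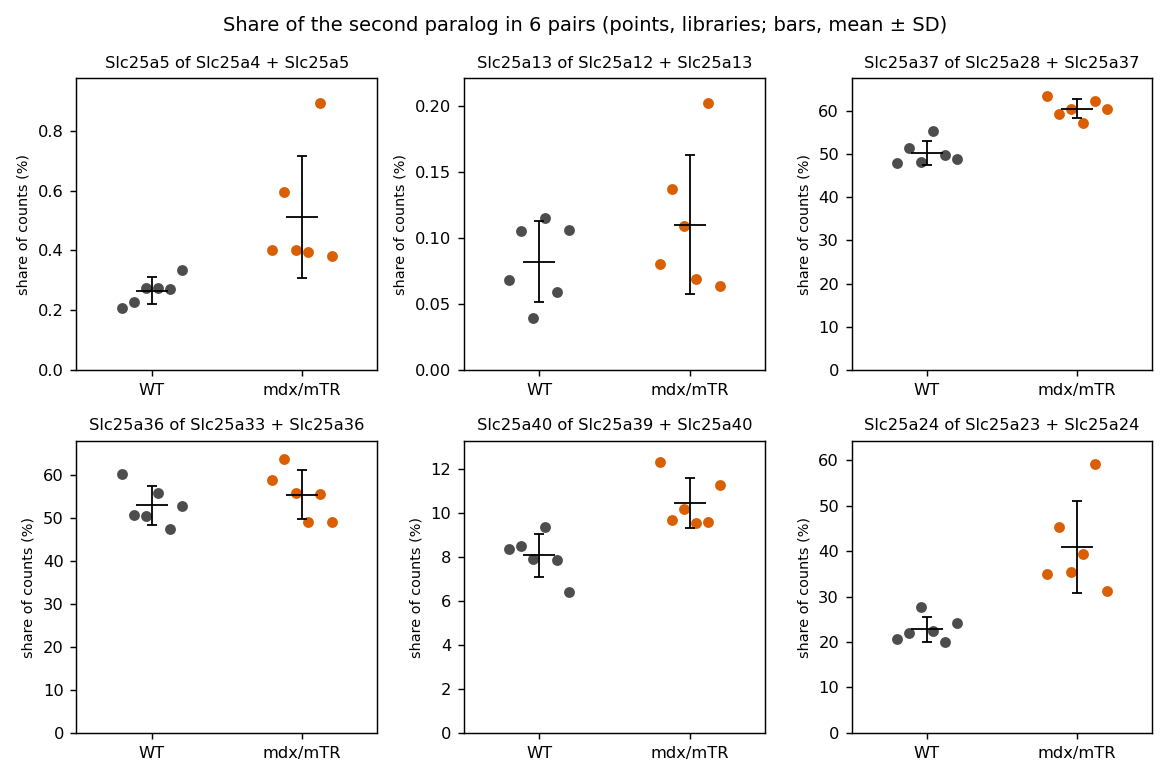
Share of the pair's counts on the named partner, in percent, for 6 pairs of related carriers; points are libraries and bars are the mean ± SD of each group. The groups separate for Slc25a5, Slc25a24, Slc25a37 and Slc25a40 and overlap for Slc25a13 and Slc25a36.

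The median coefficient of variation over the 40 tested members was 8.74% in WT and 11.03% in mdx/mTR. It was higher in mdx/mTR for 29 of the 40, and the matching share of all genes was not determined. Over all genes tested the median moved the same way, from 9.70% in WT to 11.7% in mdx/mTR.

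Carriers of the same family listed under other symbols were examined next, together with the genes that work beside them. Ucp2, an uncoupling protein known from immune and other cells, lay at 10.4, 18.6 and 21.9 CPM in WT and 25.7, 31.4 and 54.5 CPM in mdx/mTR. All mdx/mTR libraries were higher, replicate 5 the most (log2 fold change 0.95; edgeR adjusted p = 0.00181). Ucp3, the uncoupling protein of skeletal muscle, lay at 286, 460 and 637 CPM in WT and 214, 273 and 352 CPM in mdx/mTR, with overlap (log2 fold change -0.75; edgeR adjusted p = 0.00253). Of the related Mtch1 and Mtch2, Mtch1 rose by 0.17 and Mtch2 had a value of -0.04. In this group of 4 tested, 2 rose and 1 fell (25.0% and 23.4% of all genes). With library totals alone 3 rose and 1 fell (40.1% and 11.2% of all genes).

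Of 10 other mitochondrial transporters 6 fell and 2 rose (23.4% and 25.0% of all genes). With library totals alone 2 fell and 3 rose (11.2% and 40.1% of all genes). Sfxn3, a sideroflexin, rose by 0.88 (edgeR adjusted p = 1.17e-06), while Sfxn5 changed by -0.92 (edgeR adjusted p = 0.00028). The pyruvate carrier subunits Mpc1 and Mpc2 fell by 0.38 and 0.32, and the outer-membrane channels Vdac1, Vdac2 and Vdac3 fell by 0.24, 0.22 and 0.18. Of 10 enzymes of the carnitine, malate-aspartate and glycerol phosphate shuttles 6 fell and 1 rose, beside the same 23.4% and 25.0%. With library totals alone 5 of these enzymes fell and 1 rose (11.2% and 40.1% of all genes). The 2 smallest adjusted p-values were those of Cpt2 and Crat, which handle acylcarnitines inside the matrix as Slc25a20 delivers them, with log2 fold changes of -0.67 and -0.47 (edgeR adjusted p = 4.72e-05 and 8.39e-05). Cpt1a, the form of the outer-membrane enzyme best known from liver, rose by 0.40, and Cpt1b, the muscle form, fell by 0.44.

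Among 14 genes of the machinery that imports carriers, 3 fell and 0 rose (11 not called), a share of 21.4% called, below the 48.3% of all genes. With library totals alone 0 fell and 4 rose (11.2% and 40.1% of all genes). The 2 with the smallest p were the receptor Tomm70a, at -0.21, and the small chaperone Timm10, at -0.38 (edgeR adjusted p = 0.00135 and 0.00249). Among 15 genes of ATP synthase and of the kinases that use its product, 4 fell and 1 rose, a share of 33.3% called, again below the 48.3% of all genes. With library totals alone 0 fell and 2 rose (11.2% and 40.1% of all genes). Atp5c1 of the ATP synthase fell by 0.23 (edgeR adjusted p = 0.00988). The creatine kinase of muscle mitochondria, Ckmt2, fell by 0.44. The median log2 fold change was -0.20 for the other transporters, -0.31 for the shuttle enzymes, -0.07 for the import machinery and -0.14 for ATP synthase and kinases, beside -0.23 for the Slc25a members.

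**Figure D5:**
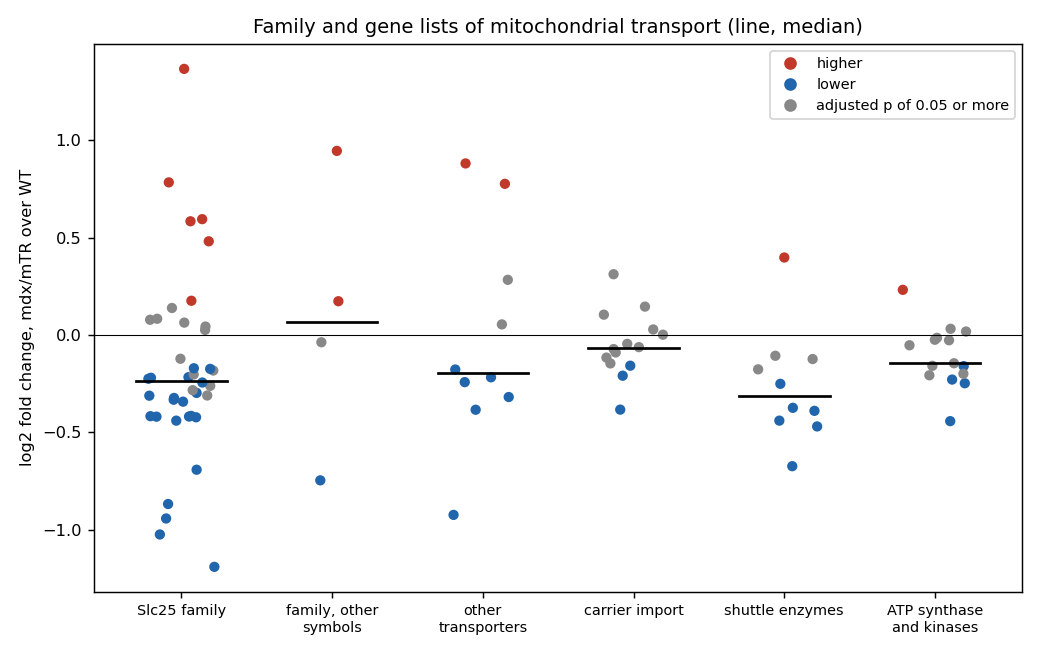
Log2 fold change (mdx/mTR relative to WT) for the tested genes of the family and of 5 related lists; points are genes, black lines are list medians, and colour marks the direction of genes with an adjusted p below 0.05. The family median lies at -0.23 and that of the import machinery at -0.07.

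In the authors' deposited table, 40 members have an adjusted p, and it is below 0.05 for 29, of which 6 are higher and 23 lower (25.4% and 24.7% of all genes with an adjusted p there). The 28 members called by edgeR are among them with the same direction, and the additional one is Slc25a29, with an adjusted p of 0.0496 in the authors' deposited table.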

How the data were processed

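The authors deposited whole-number counts per gene symbol for 12 libraries, with 0 per-sample columns left unmatched. The submitters' processing notes name FastQC, STAR, DESeq2 and build mm10; the counter, annotation and strand handling are not given in the sources used here. A second deposited table, by the authors, gives for each gene, per the file headers, the mean normalised signal, the log2 fold change and its error, a score for the test, and raw and adjusted p-values.

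Counts were tested with edgeR 4.0.16 in R 4.3.3: filterByExpr (13937 genes, 99.97% of counts), TMM scaling, group as the only term, glmQLFTest, and Benjamini-Hochberg adjustment over all tested genes, threshold 0.05. The SE is the log2 fold change divided by the square root of F. CPM use TMM-scaled totals. The floor of 3 counts is the 95% limit that a count of 0 allows, for counting error only. Differences between replicates exceeded sampling noise (chi-square per degree of freedom 9.14 to 128), so no library was a repeat sequencing of another in its group. Whether any came from the same animal cannot be told from this. The procedure was tested on simulated data.

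The members, lists, motifs and tests were chosen with earlier results of these data known. By the naming rule, library values are given for Slc25a3, Slc25a4, Slc25a5, Slc25a12, Slc25a13, Slc25a20 and the 6 largest rises and 6 largest falls among called members with a mean of at least 1 CPM; other called members get their fold change, and each related list its 2 smallest p-values. Any other gene with values was chosen after they were seen. Some results on single genes are not reported here. Lengths, exon overlaps and shared 50-base stretches came from GENCODE M21 (GRCm38), in which 47 of 47 members were matched. Alternatives were other filters, scalings, DESeq2 1.42.0, limma-voom 3.58.1, a replicate block, each library left out, a stricter threshold and a minimum effect.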

Additional observations from a re-analysis of the deposited data

Results flagged for a closer look

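For 92 sets of 6 libraries (1 member or share in 1 group each), the gap between the extreme library and its nearest neighbour was divided by the range of the set. The ratio passed Dixon's 95% limit for 6 values in 7 sets, where chance gives about 1 in 20 sets (4.6 of 92).

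Library mdx/mTR replicate 5 stood apart in 3 of them. It was the lowest of its group for Slc25a4 (3105 CPM, the others 3903 to 4270) and for Slc25a12 (483 CPM, the others 645 to 682). For Slc25a24 it was the highest (28.7 CPM, the others 10.02 to 16.7). These CPM are TMM-scaled, and this library had the highest TMM factor, 1.16, the next being 1.09. A higher factor lowers CPM, so the low values of Slc25a4 and Slc25a12 include this scaling. Whether the gaps pass the limit without TMM scaling was not tested. The same library had the lowest fibre marker sum and the highest macrophage and fibroblast marker sums of its group, and the part of these in the carrier values was not tested.

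Library mdx/mTR replicate 3 was the highest of its group for Slc25a22 (24.2 CPM, the others 15.9 to 18.3) and for Slc25a34 (25.5 CPM, the others 9.31 to 12.7). Library mdx/mTR replicate 4 was the highest for Slc25a28 (28.2 CPM, the others 20.7 to 23.2). In WT, replicate 1 was the highest for Slc25a36 (32.9 CPM, the others 22.5 to 25.4).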

How the results depend on the processing

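Counts of members called higher and lower stayed within 1.5 times the reported ones under the other filters, DESeq2, limma-voom, upper-quartile scaling and the stricter threshold. With library totals alone, 11 members were lower and the median was -0.0803. In the same setting, 2 other transporters, 5 shuttle enzymes, 0 import genes and 0 genes of ATP synthase and kinases were lower (11.2% of all genes). There, 3 other transporters, 1 shuttle enzyme, 4 import genes and 2 genes of ATP synthase and kinases were higher (40.1% of all genes). A minimum log2 fold change of 0.5 left 1368 genes in all, 1 member higher and 2 lower, 1 other transporter in each direction, and 0 in either direction for the other lists. At an adjusted p below 0.01, 0 shuttle enzymes were higher and 1 gene of ATP synthase and kinases was lower. Import genes called higher numbered 2 with a filter of 1 CPM and 2 with upper-quartile scaling. Leaving out 1 library gave 6125 to 6816 genes, 6 to 6 members higher, 19 to 22 lower and a median of -0.262 to -0.203, with 0 to 1 import genes higher. With library totals alone the balance of calls turned from lower to higher in the other transporters, the import list, and ATP synthase and kinases. That scaling moves the median of all genes by 0.16.

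Replicate numbers are shared between the groups, but correlations of same-numbered libraries ran from -0.155 to 0.354, over 0.1 in 2 of 6 pairs, and 2 of 6 libraries correlated best with their own number, so the numbers were not taken as pairs. With the replicate block 6 members were higher and 22 lower; Slc25a33 lost its call (adjusted p 0.0507) and Slc25a36 gained one.

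Members with few counts, such as Slc25a2, are limited by depth.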
